A study of Mus musculus with 11 samples.

Results

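RNA of mitral leaflets, the thin flaps that separate left atrium from left ventricle, was compared between mice heterozygous for the S14R allele of Dzip1 (Dzip1 S14R/+, 3 libraries) and mice with 2 wild-type copies of the gene (Dzip1 +/+, 3 libraries). The libraries were assigned by the genotype in their labels, and they are 6 of the 11 in the series. The remaining 5 belong to an Ift88 knockout experiment with its own table and were not compared with them. The table lists 26667 genes, of which 16160 had enough counts to be tested and 5654 had no count in any library. The labels name no Cre driver, transgene or treatment for these mice. The sources used here do not state age, strain or sex, and no label ties a library to an animal of its own. The p-values therefore measure the spread between libraries, which may be technical in part.

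The product of Dzip1 is a zinc finger protein found at the base of cilia. The primary cilium is a single antenna-like projection that grows from a basal body, is built by intraflagellar transport and takes part in Hedgehog signalling. Dzip1 binds other proteins of the ciliary base, among them Cby1, which is also known as an antagonist of beta-catenin. Cilia are present on the interstitial cells of the developing valve, and missense changes in DZIP1 have been described in families with mitral valve prolapse. The comparison addresses which leaflet transcripts differ when 1 copy of Dzip1 carries arginine in place of serine at residue 14.

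The reference sequence around this residue is shown because it is the site that distinguishes the groups. In GRCm38, codon 14 lies at chr14:118922753-118922755 on the reverse strand, in exon 4 of the 22 exons of transcript Dzip1-201 and in exon 2 of the 20 exons of Dzip1-202. It is coding sequence in both transcripts, whose open reading frame has 852 codons. The first 20 codons from the GENCODE M21 transcripts read 5′ to 3′ as follows, with the serine codon in capitals.
Dzip1 codons 1 to 20: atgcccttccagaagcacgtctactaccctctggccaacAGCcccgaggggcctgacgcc
The labels do not give the base change behind S14R. Counts per gene cannot tell the alleles apart, so the genotype rests on the labels.

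Total counts were 75.1 to 79.1 M in wild type and 86.0 to 93.5 M in S14R/+, so depth did not overlap between the groups, and levels are given as CPM, counts scaled to library size and corrected for library composition. Spearman correlations between libraries ranged from 0.996 to 0.998. In a principal component analysis the first component held 43.3% of the variance and placed wild-type replicates 1 and 3 at -6.06 and -9.17, away from the other libraries, which lay between 3.32 and 4.74. On this component alone, wild-type replicate 2 thus lay with the S14R/+ libraries. On the second component, with 24.3% of the variance, wild-type replicates 1, 2 and 3 lay at -6.05, 4.67 and 5.08. The S14R/+ libraries lay between them there, from -2.71 to 1.63. Counts of Xist and of Y-linked genes marked wild-type replicate 3 and S14R/+ replicate 2 as female and the other 4 libraries as male. Each group thus held libraries of both sexes, which come from different animals. Whether libraries of the same sex come from separate animals is not stated. Valve interstitial transcripts were abundant, with Col3a1 between 1742 and 2483 CPM. Heart muscle transcripts were also abundant: the 25 cardiomyocyte genes took 4.92% to 5.46% of all counts in wild type and 5.63% to 5.69% in S14R/+, without overlap between the groups.

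No gene passed the test. edgeR's quasi-likelihood test called 0 of 16160 genes (0%) at an adjusted p under 0.05, and the smallest adjusted p was 0.822. At an unadjusted p under 0.05 there were 959 genes, 5.93% of those tested. Of these, 389 (2.41% of genes tested) were higher and 570 (3.53%) lower in S14R/+. DESeq2 and limma-voom also called 0 genes, with 987 and 917 at an unadjusted p under 0.05. All 3 S14R/+ libraries lay above all 3 wild-type libraries in 852 genes (5.27%) and below them in 810 (5.01%). The median log2 fold change of S14R/+ over wild type was -0.00033 over all tested genes, and 49.9% of them were positive. The libraries were alike enough to bound the difference for most genes: the 95% interval of the fold change lay within 1.25-fold in either direction for 10410 genes (64.4%), within 1.5-fold for 12527 (77.5%) and within 2-fold for 14264 (88.3%). The biological coefficient of variation was 7.85%.

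**Figure D1:**
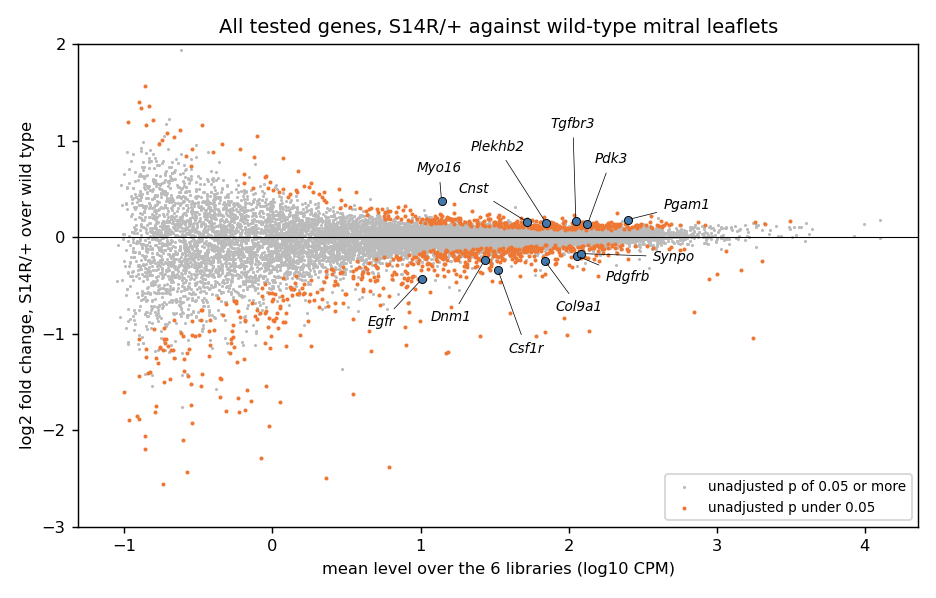
Each point is a tested gene, with its mean level over the 6 libraries on a log10 CPM axis and the log2 fold change of S14R/+ over wild type on the vertical axis. Orange points have an unadjusted p under 0.05, no gene passed the adjusted threshold, and the 12 named genes lie between -0.44 (Egfr) and 0.37 (Myo16).

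These counts moved with single libraries. The 959 genes at an unadjusted p under 0.05 became 1110, 2545 and 499 when wild-type replicate 1, 2 or 3 was left out in turn. They became 593, 736 and 535 when S14R/+ replicate 1, 2 or 3 was left out. Without wild-type replicate 3, 195 of 16356 genes were higher and 304 lower at that threshold. Counts of list members without that library are to be read beside these. Genes called at an adjusted p under 0.05 numbered 10 with wild-type replicate 2 left out, 2 with wild-type replicate 1 left out, 1 with S14R/+ replicate 2 left out and 0 for each of the other 3 libraries. All were lower in S14R/+. The 10 included the long non-coding RNAs Neat1, Meg3 and Dnm3os. The 2 were Capn11 and Thbs2, which encodes the matrix glycoprotein thrombospondin 2. In that fit Capn11 had the smaller adjusted p in edgeR (0.0252 against 0.044) and an extreme log2 fold change of -10.8, against -0.50 for Thbs2. The 1 was the beta globin entry Beta-s, with a log2 fold change of -1.77 in that fit. These names were chosen after their values were seen. Neat1 stood at 28.5, 11.5 and 24.8 CPM in wild type against 14.1, 14.4 and 15.8 in S14R/+, so its wild-type replicate 2 was the lowest of the 6.

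The 12 genes described next are the 6 in each direction with the smallest p among genes whose groups did not overlap. That separation was a condition of their choice and is no evidence for a difference. Each had an adjusted p of 0.822 in edgeR. Myo16, which encodes an unconventional myosin, was measured at 12.7, 12.7 and 10.8 CPM in wild type and at 14.7, 16.3 and 15.9 in S14R/+. Its log2 fold change of 0.37 ± 0.077 (SE) was the largest of the 6 higher genes. Wild-type replicate 3 was its lowest library, and without that library the value was 0.30 ± 0.068.

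Pgam1, the phosphoglycerate mutase of glycolysis, had 233, 244 and 228 CPM in wild type against 260, 268 and 270 in S14R/+, a log2 fold change of 0.18 ± 0.038 (SE). The spread within each group was smaller than the gap between the group means. Tgfbr3 encodes betaglycan, a TGF-beta co-receptor needed in heart development. It had 107, 108 and 102 CPM in wild type and 120, 116 and 119 in S14R/+, which is 0.16 ± 0.035 on the log2 scale. Pdk3, a kinase that restrains pyruvate dehydrogenase, stood at 126, 132 and 125 CPM against 141, 140 and 140. Its 3 S14R/+ libraries differed from each other by less than any other gene of the 12, and the log2 fold change came to 0.13 ± 0.034. Plekhb2, a pleckstrin homology protein of recycling endosomes, and Cnst, which encodes the connexin-binding protein consortin, had log2 fold changes of 0.15 ± 0.037 and 0.16 ± 0.041.

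Among the 6 lower genes, Pdgfrb, the PDGF receptor beta of mesenchymal cells and pericytes, had the smallest unadjusted p of the 12 (0.000543). Its levels were 118, 117 and 127 CPM in wild type and 106, 104 and 106 in S14R/+, a log2 fold change of -0.19 ± 0.039 (SE). All 3 S14R/+ libraries lay below the lowest wild-type library by more than they differed from each other. Csf1r, the receptor for macrophage colony-stimulating factor, had 33.8, 37.0 and 40.5 CPM against 28.1, 28.2 and 31.9. This gave a log2 fold change of -0.34 ± 0.076. Egfr, the epidermal growth factor receptor, had 10.9, 10.9 and 13.4 CPM against 9.32, 8.72 and 8.03. At -0.44 ± 0.098 it had the log2 fold change farthest from 0 of the 12, and wild-type replicate 3 was its highest library. Leaving it out gave -0.33 ± 0.084.

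Col9a1, a chain of cartilage-type collagen IX, had 73.2, 75.6 and 74.8 CPM in wild type and 59.6, 69.3 and 60.1 in S14R/+, with S14R/+ replicate 2 nearest to the wild type. This amounts to -0.24 ± 0.056 (SE) on the log2 scale. Synpo, which encodes the actin-associated protein synaptopodin, had a log2 fold change of -0.17 ± 0.038. Dnm1, which encodes the membrane-fission GTPase dynamin 1, had -0.24 ± 0.055.

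**Figure D2:**
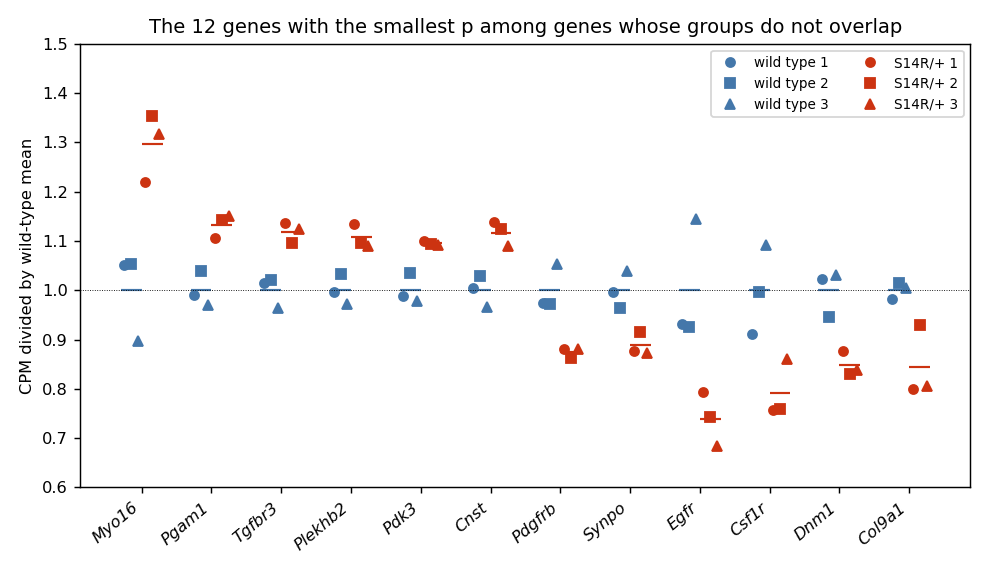
For each of the 12 genes, points give the CPM of a library divided by the wild-type mean, with wild type in blue and S14R/+ in red, and horizontal lines give the group means. Myo16 lies highest and Egfr lowest among the S14R/+ means, and separation of the groups was a condition of the choice.

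With DESeq2 at a looser adjusted p of 0.1, a setting added after the data were seen, 6 genes were called. These were Myo16 and Pgam1, both higher, and Pdgfrb, Csf1r, Slit3 and Hoxa4, all lower. Slit3 and Hoxa4 had not been named by the rule. Slit3, a secreted ligand of Robo receptors, had 66.6, 77.7 and 89.7 CPM in wild type and 60.5, 62.4 and 56.8 in S14R/+, with a log2 fold change of -0.38 ± 0.089 (SE, edgeR). Hoxa4, a homeobox gene, had 56, 140 and 155 counts against 27, 58 and 19. Its log2 fold change of -1.96 ± 0.469 rests on under 160 counts in every library, and wild-type replicate 1, at 0.709 CPM, lay close to S14R/+ replicate 2, at 0.644.

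Dzip1 itself was measured at 30.2, 27.8 and 31.8 CPM in wild type and 29.5, 28.1 and 28.5 in S14R/+, from 2179 to 2640 counts. The groups overlapped. The log2 fold change was -0.061 ± 0.059 (SE), with a 95% interval from -0.19 to 0.070 and an adjusted p of 0.891 in edgeR. Leaving out wild-type replicate 2 gave -0.11, and leaving out wild-type replicate 3 gave -0.018. A reduction by 1 of the 2 gene copies' output would be a log2 fold change of -1, which lies outside this interval. Dzip1l, the paralogue of Dzip1 at the ciliary base, had 56.7, 55.1 and 56.4 CPM against 52.3, 51.6 and 55.4. The log2 fold change of Dzip1l was -0.078 ± 0.041, and S14R/+ replicate 3 lay within the wild-type range. Cby1, the Dzip1 partner named above, had 18.3, 21.6 and 19.6 CPM against 18.8, 20.1 and 20.7, with a log2 fold change of 0.0054 ± 0.071. Its sign depended on the setting.

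Genes that build and anchor the cilium were measured closely and stayed near 0. Of 29 genes of intraflagellar transport and cilium structure, 0 had an unadjusted p under 0.05, 9 were positive and the log2 fold changes spanned -0.11 to 0.080 with a median of -0.023. The median was 0.0028 when wild-type replicate 3 was left out. For 27 of them the 95% interval lay within 1.25-fold either way, beside 64.4% of all genes. Ift88, a core subunit of the IFT-B train, had 11.9, 13.2 and 11.9 CPM in wild type and 12.01, 12.3 and 12.4 in S14R/+, with a log2 fold change of -0.0097 ± 0.065 (SE). Kif3a, a subunit of the kinesin that moves the train outwards, had the most negative value of the list, -0.11 ± 0.052. Pkd2, which encodes the ciliary channel polycystin 2, had -0.077 ± 0.040. Of 26 basal body and transition zone genes, 0 had an unadjusted p under 0.05 in either direction. The range was -0.12 to 0.083 and the median was -0.0081. Of their intervals, 24 lay within 1.25-fold, beside the same 64.4%.

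In the Wnt pathway, Ctnnb1 (beta-catenin) had 1034, 1108 and 1043 CPM in wild type and 1064, 1064 and 1076 in S14R/+. The groups overlapped, with a log2 fold change of 0.0083 ± 0.046 (SE) and a 95% interval from -0.095 to 0.11. Axin2, a feedback target of beta-catenin, had 17.6, 16.1 and 18.8 CPM against 14.04, 16.5 and 15.7. Its log2 fold change of -0.18 ± 0.078 had an unadjusted p of 0.043, and S14R/+ replicate 2 lay above wild-type replicate 2. It was -0.13 ± 0.080 when wild-type replicate 3 was left out. Lef1, a transcription factor that is both partner and target of beta-catenin, had -0.016 ± 0.077.

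The secreted antagonist Dkk2 was the most negative of the 36 Wnt genes tested. It had 5.00, 6.22 and 6.02 CPM in wild type and 3.89, 4.41 and 4.24 in S14R/+, without overlap, and a log2 fold change of -0.46 ± 0.113 (SE, adjusted p of 0.822 in edgeR). Ror2, a receptor for Wnt5a, was the one Wnt gene with an unadjusted p under 0.05 on the higher side, at 0.096 ± 0.040. In all, 1 of the 36 genes was higher and 2 were lower at that threshold, beside 2.41% and 3.53% of all genes, and 1 and 1 without wild-type replicate 3. The median was -0.034.

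All 14 Hedgehog genes tested had negative log2 fold changes, from -0.52 to -0.019 with a median of -0.050, beside 49.9% positive over all genes. Of these, 1 had an unadjusted p under 0.05, beside 3.53% of all genes lower, and 3 did with wild-type replicate 3 left out. With all libraries it was Boc, a co-receptor for Hedgehog ligands, with 36.8, 37.5 and 39.9 CPM in wild type and 33.5, 32.9 and 32.2 in S14R/+. Its groups did not overlap, and the log2 fold change was -0.21 ± 0.049 (SE). The ligand Dhh had 7.48, 8.11 and 7.26 CPM against 6.64, 6.83 and 6.94, again without overlap, and -0.16 ± 0.079. Ptch1, both receptor and target of the pathway, stood at 35.2, 34.7 and 29.0 CPM against 32.4, 31.2 and 31.5. The S14R/+ libraries lay inside the wild-type range, and the log2 fold change of Ptch1 was -0.056 ± 0.072. Without wild-type replicate 3, its lowest library, it was -0.14 ± 0.049. The target Gli1 was scarce, at 0.595, 0.906 and 1.27 CPM against 0.582, 0.577 and 0.765. Its log2 fold change of -0.52 had a 95% interval from -1.20 to 0.16, and its counts were 47, 71 and 97 in wild type and 50, 52 and 71 in S14R/+. Without wild-type replicate 3, Gli1 stood at -0.23 ± 0.304.

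**Figure D3:**
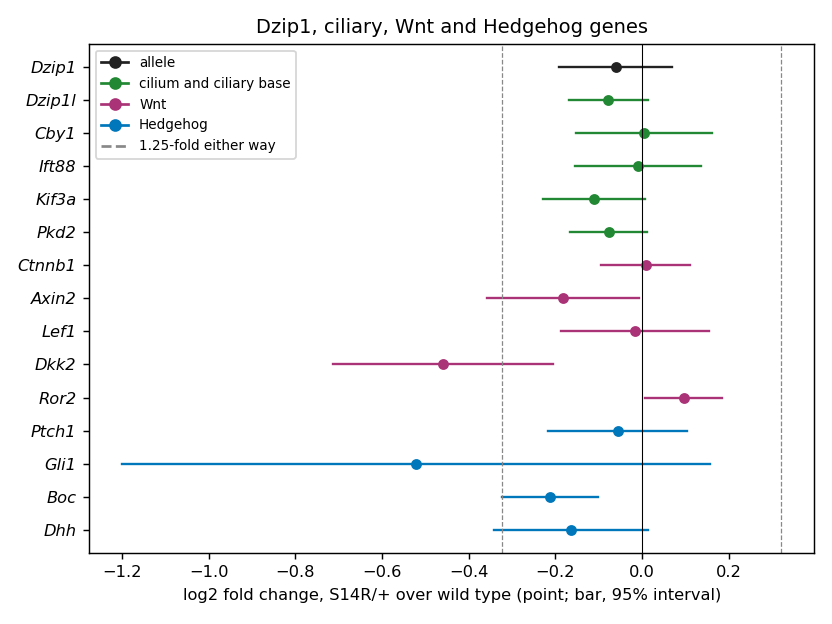
Points give the log2 fold change of S14R/+ over wild type and bars its 95% interval for Dzip1 (black), 5 genes of the cilium and its base (green), 5 Wnt genes (purple) and 4 Hedgehog genes (blue), with dashed lines at 1.25-fold either way. The intervals of Dzip1 and the ciliary genes lie inside the dashed lines, and that of Gli1 is the widest.

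Of 15 Notch genes, 12 had negative values and 4 had an unadjusted p under 0.05, all lower, beside 3.53% of all genes. The median was -0.055. Hey1, a transcriptional target of Notch used in the formation of valve mesenchyme, had 18.6, 19.5 and 17.8 CPM in wild type and 15.6, 15.8 and 16.04 in S14R/+. All 3 S14R/+ libraries lay below the wild type, which gave -0.23 ± 0.055 (SE) on the log2 scale. The receptor Notch2 had 113, 119 and 112 CPM against 105, 104 and 105, likewise without overlap, and -0.13 ± 0.035. The target Heyl and the ligand Jag1 overlapped between groups, with -0.36 ± 0.114 and -0.16 ± 0.068. With wild-type replicate 3 left out, 3 of the 15 had an unadjusted p under 0.05, all lower, and the median was -0.088.

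TGF-beta and BMP genes had a median of -0.012 over 27 genes. Of these, 1 was higher (Tgfbr3) and 4 lower at an unadjusted p under 0.05, beside 2.41% and 3.53% of all genes. Id1 and Id3, targets of BMP signalling, had log2 fold changes of -0.13 ± 0.049 and -0.12 ± 0.045 (SE). With wild-type replicate 3 left out none of the 27 was lower at that threshold, and the median was -0.036. Of 28 regulators of valve mesenchyme and endocardium, 0 were higher and 3 lower at that threshold, beside the same 2.41% and 3.53%, with a median of -0.015. The 3 were Pdgfrb, Snai1 and Prrx1. Snai1, a repressor that drives endothelial-to-mesenchymal transition, had 19.8, 19.3 and 18.9 CPM in wild type and 16.8, 16.4 and 17.6 in S14R/+, without overlap, at -0.19 ± 0.054. Prrx1, a mesenchymal homeobox gene, had -0.13 ± 0.054. Sox9, a regulator of valve interstitial cells, and Nfatc1, a factor of the endocardium, overlapped between groups, at -0.031 ± 0.074 and -0.0092 ± 0.042.

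Junction and planar polarity genes include Dchs1 and Flna, both known from inherited mitral valve disease. Dchs1, an atypical cadherin, had 171, 175 and 172 CPM in wild type and 161, 164 and 160 in S14R/+. The groups did not overlap, yet the log2 fold change was small, at -0.092 ± 0.031 (SE). Flna, the actin cross-linker filamin A, had 1298, 1120 and 1235 CPM against 1112, 1056 and 1145, with overlap and -0.14 ± 0.062. These 2 were the members of the 24 with an unadjusted p under 0.05, both lower, beside 3.53% of all genes. Without wild-type replicate 3, 1 was left. With all libraries the list median was -0.013. Of 15 MAPK feedback genes, 2 were lower at an unadjusted p under 0.05, beside the same 3.53%. They were Spry1 at -0.17 ± 0.064 and Spred1 at -0.10 ± 0.044, and the list median was -0.044. Without wild-type replicate 3, 0 were lower and the MAPK median was -0.053. Of 15 Hippo and Yap genes, 0 had an unadjusted p under 0.05, and the median was -0.0062.

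Collagens had the lowest median of the 25 pathway lists, -0.20 over 22 genes. Of these, 18 were negative, 11 had an unadjusted p under 0.05, all lower, beside 3.53% of all genes, and 3 lay below the wild type in all libraries, beside 5.01%. Col1a1, a chain of type I collagen, had 1249, 1547 and 2083 CPM in wild type and 1247, 1388 and 1216 in S14R/+. Its wild-type libraries ranged over more than its groups differed, and wild-type replicate 1 matched S14R/+ replicate 1. The log2 fold change was -0.34 ± 0.149 (SE) with all libraries, -0.12 ± 0.089 without wild-type replicate 3 and 0.054 with the cardiomyocyte genes as a covariate. The level of those genes did not overlap between the groups, so in a fit with this covariate it cannot be told apart from genotype. Col1a2, the other type I chain, had 880, 1110 and 1428 CPM against 847, 916 and 857, and -0.38 ± 0.137. Col3a1, the type III chain, had 1900, 2210 and 2483 against 1844, 1979 and 1742, and -0.24 ± 0.092. In all 3, wild-type replicate 3 was the highest library.

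The other listed collagens were mixed. Col6a3 had 96.3, 121 and 133 CPM in wild type and 91.0, 106 and 84.8 in S14R/+, with overlap. Col12a1 and Col15a1 overlapped between groups as well. Col14a1 and Col9a2, which had the smallest p of the list, were more even. Col14a1, which organises fibrils, had 36.5, 39.5 and 39.1 CPM in wild type and 34.3, 33.6 and 34.1 in S14R/+, without overlap, at -0.17 ± 0.049 (SE). Col9a2, partner chain of Col9a1, had 40.5, 47.4 and 45.9 against 38.2, 39.4 and 37.1, also without overlap, at -0.22 ± 0.061. With wild-type replicate 3 left out the collagen median was -0.097 and 4 of 22 were lower at an unadjusted p under 0.05. With the cardiomyocyte genes as a covariate the median was -0.048.

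Among 17 genes of proteoglycans and hyaluronan, 0 were higher and 5 lower at an unadjusted p under 0.05, beside 2.41% and 3.53% of all genes. Their median was -0.043. Vcan, which encodes versican, the main proteoglycan of the leaflet's spongy layer, had 1344, 1269 and 1081 CPM in wild type and 1300, 1286 and 1314 in S14R/+. Its groups overlapped at 0.079 ± 0.074 (SE), and the sign turned without wild-type replicate 3, its lowest library. The small leucine-rich proteoglycans Lum and Dcn, which bind collagen fibrils, had -0.18 ± 0.070 and -0.18 ± 0.068, with overlap. Gpc6, a glypican on the cell surface, had -0.25 ± 0.087. Of 21 elastic fibre and matrix glycoprotein genes, 0 were higher and 8 lower, beside the same 2.41% and 3.53%, and their median was -0.076. Leaving out wild-type replicate 3 turned the 8 into 1 and the 5 proteoglycan genes into 1, while the count over all genes went from 959 to 499. The proteoglycan median was then -0.063, with 1 of 17 genes positive. The elastic fibre median was then -0.056, with 6 of 21 positive.

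Postn, which encodes periostin of the valve matrix, had 651, 697 and 596 CPM in wild type and 612, 629 and 603 in S14R/+. Its groups overlapped at -0.076 ± 0.057 (SE), and without wild-type replicate 3, its lowest library, the value was -0.13 ± 0.044. Fbln5, needed for elastic fibres, had 156, 194 and 193 against 143, 163 and 104, with S14R/+ replicate 3 the lowest, at -0.41 ± 0.14. Thbs2 had 50.2, 71.1 and 76.95 against 53.8, 53.6 and 49.5, at -0.34 ± 0.125, and its wild-type replicate 1 lay among the S14R/+ libraries. Genes of collagen processing had -0.031 as their median over 19. At an unadjusted p under 0.05, 1 was higher and 4 were lower, beside 2.41% and 3.53% of all genes. With wild-type replicate 3 left out, 2 were lower. Bmp1, the protease that trims procollagen, had 162, 153 and 177 CPM against 147, 143 and 141, without overlap, at -0.19 ± 0.050. Matrix proteases and their inhibitors had a median of -0.097 over 18, with 0 higher and 7 lower, beside 2.41% and 3.53% of all genes. Without wild-type replicate 3, 2 were lower and the median was -0.083. Adamts5, which cleaves versican, and the membrane collagenase Mmp14 had -0.20 ± 0.059 and -0.15 ± 0.051, both without overlap. Chondrogenic, osteogenic and tendon genes had a median of -0.0025 over 15, with 1 lower, beside the same 3.53%. Its sign held in 12 of 19 alternatives, with -0.067 when wild-type replicate 3 was left out and -0.28 with the cardiomyocyte covariate.

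Metabolic genes lay on the other side of 0. Of 23 glycolysis and hypoxia genes, 20 were positive and 7 had an unadjusted p under 0.05, all higher, beside 2.41% of all genes. In 13 of them every S14R/+ library lay above every wild-type library, beside 5.27% of all genes. The median was 0.10. Besides Pgam1, Pgk1, which encodes phosphoglycerate kinase, had 687, 752 and 676 CPM in wild type and 763, 804 and 784 in S14R/+, at 0.15 ± 0.051 (SE). Pdk1, another kinase of pyruvate dehydrogenase, had 226, 233 and 223 against 245, 268 and 235, at 0.13 ± 0.049. In both genes wild-type replicate 2 came nearest to the S14R/+ libraries. Slc16a3, a lactate exporter, had the highest log2 fold change of the list, 0.25 ± 0.088. Adm, which encodes adrenomedullin and was chosen after its values were seen, had the lowest, -0.13. Slc16a3 stood at 207, 211 and 166 CPM in wild type and 214, 254 and 225 in S14R/+, and without wild-type replicate 3, its lowest library, its log2 fold change was 0.14 ± 0.064. The list's median was 0.078 when wild-type replicate 3 was left out, and 3 of 23 were higher at the unadjusted threshold.

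Oxidative phosphorylation genes had a median of 0.088 over 28. Of these, 7 were higher and 1 lower at an unadjusted p under 0.05, beside 2.41% and 3.53% of all genes. Without wild-type replicate 3 there were 0 in either direction, and the median was 0.058. Uqcrc1, a core subunit of complex III, had 449, 491 and 432 CPM in wild type and 495, 493 and 509 in S14R/+. Cox5a, a subunit of complex IV, had 226, 221 and 191 against 238, 230 and 234. Neither overlapped, and their log2 fold changes were 0.13 ± 0.050 and 0.14 ± 0.057 (SE). With the cardiomyocyte genes as a covariate the medians were 0.0026 for oxidative phosphorylation and 0.045 for glycolysis, and Uqcrc1 and Cox5a stood at -0.010 and -0.030.

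Cell cycle genes were positive in 24 of 25, beside 49.9% of all genes, but 0 had an unadjusted p under 0.05. The median was 0.056, and 24 intervals lay within 1.25-fold, beside 64.4% of all genes. The median was 0.030 with wild-type replicate 3 left out and -0.023 with the cardiomyocyte genes as a covariate. Cholesterol and lipid synthesis genes had a median of 0.040 over 22. At an unadjusted p under 0.05, 1 was higher, beside 2.41% of all genes. It was Insig1, a sterol-regulated retention protein, at 0.14 ± 0.056 (SE). Ribosomal protein genes had a median of -0.040 over 36 and 0 at the unadjusted threshold. The unfolded protein response had a median of -0.016 over 20, with 3 lower, beside 3.53% of all genes. The 3 included Trib3, a stress-induced pseudokinase, at -0.53 ± 0.202, and the transcription factor Xbp1, at -0.12 ± 0.043. Immediate early and stress genes had a median of -0.043 over 25, with 1 lower, beside the same 3.53%. Interferon response and circadian clock genes had medians of -0.037 over 27 and -0.010 over 17, with 0 at the unadjusted threshold. With wild-type replicate 3 left out, 0 of the cholesterol genes, 1 of the unfolded protein response genes and 0 of the immediate early genes had an unadjusted p under 0.05. The unfolded protein response and immediate early medians were then -0.040 and -0.076. The interferon median then turned to 0.022, although 2 interferon genes were lower at that threshold, and the cholesterol median turned to -0.0037.

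**Figure D4:**
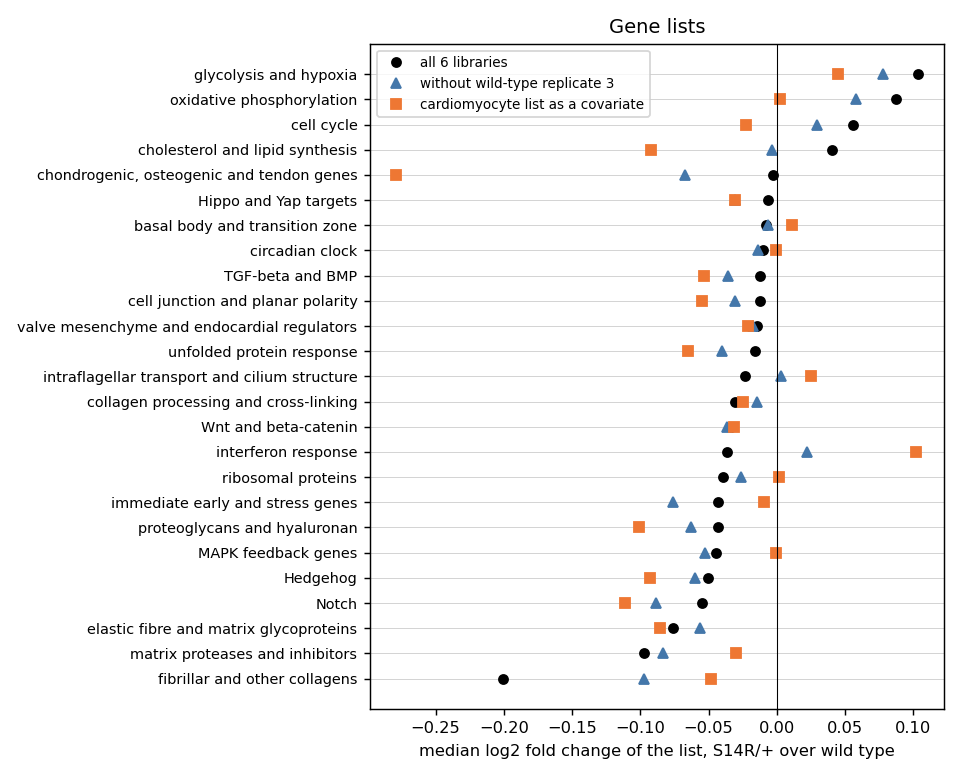
For each of the 25 pathway lists, the median log2 fold change of its tested genes is plotted with all 6 libraries (circles), without wild-type replicate 3 (triangles) and with the cardiomyocyte genes as a covariate (squares). The collagen median lies at -0.20, -0.097 and -0.048 under these settings.

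Markers of the cell types a leaflet sample can hold were read beside these values. In bulk RNA, fewer cells of a type and less RNA per cell cannot be told apart. The 11 valve interstitial markers summed to 6940, 7606 and 8082 CPM in wild type and 6835, 7065 and 6666 in S14R/+, with overlap at wild-type replicate 1. Their median log2 fold change was -0.060, with 0 higher and 4 lower at an unadjusted p under 0.05, beside 2.41% and 3.53% of all genes. Without wild-type replicate 3 their median was -0.12, with 2 lower at that threshold and 0 of 11 positive. The 25 cardiomyocyte markers summed to 53700, 55110 and 48290 CPM against 56610, 56590 and 57310. Wild-type replicate 3, the library with the highest collagens, was the lowest of these. Of the 25, 22 were positive and 1 was higher at an unadjusted p under 0.05, beside 2.41% of all genes. Their median was 0.10, or 0.054 without wild-type replicate 3.

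Myh7, the slow myosin heavy chain and the most abundant of the cardiomyocyte genes, was chosen after its values were seen. It had 12774, 12320 and 10380 CPM in wild type and 13390, 13249 and 13499 in S14R/+. The groups did not overlap, and the log2 fold change was 0.18 ± 0.095 (SE). Myl4, the atrial light chain that the fetal ventricle also expresses, had 1965, 2090 and 1968 against 2132, 2230 and 2265, at 0.14 ± 0.055. The part of muscle transcripts in the collagen and metabolic values cannot be told apart from genotype here.

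Transcripts of red blood cells had the most negative median of all lists. The median over the 11 erythroid and platelet genes was -0.78, and 7 were lower at an unadjusted p under 0.05, beside 3.53% of all genes. Hbb-y, an embryonic beta-like globin, had 3285, 1326 and 2440 CPM in wild type and 788, 1514 and 1116 in S14R/+. Wild-type replicate 2 lay below S14R/+ replicate 2, so the groups overlapped, and the log2 fold change was -1.04 ± 0.299 (SE). Hba-a1 and Hba-a2, near-identical alpha globin copies between which reads may be divided uncertainly, had -0.98 ± 0.266 and -0.98 ± 0.255. Alas2, the erythroid enzyme that starts haem synthesis, had -0.78 ± 0.272. The platelet genes Pf4, Ppbp, Gp9 and Itga2b, chosen after their values were seen, had unadjusted p of 0.41 or more. None of the 7 lower genes had groups that did not overlap. Without wild-type replicate 3 the median of the 11 was -0.80, and 5 were lower at the unadjusted threshold.

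Leukocyte markers had a median of -0.27 over 13 genes. Of these, 12 were negative and 6 lower at an unadjusted p under 0.05, beside 3.53% of all genes. They summed to 143.2, 157.5 and 182.7 CPM in wild type and 130.4, 142.6 and 138.1 in S14R/+, the highest of which lay just below the lowest wild-type sum. Beside Csf1r, the Fc receptor gene Fcgr3 had 3.04, 3.64 and 4.53 CPM against 2.20, 2.62 and 2.61, without overlap, at -0.59 ± 0.164 (SE). The complement gene C1qc and the macrophage mannose receptor Mrc1 overlapped, at -0.43 ± 0.139 and -0.22 ± 0.079. Leaving out wild-type replicate 3 gave a median of -0.15, and 2 of 13 were lower at that threshold. Cd79a and Lyz2, chosen after their values were seen, were the members nearest 0.

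Endothelial and endocardial markers were level, with sums of 2362 to 2450 CPM in wild type and 2426 to 2466 in S14R/+. Their median was 0.0066 over 15 genes. At an unadjusted p under 0.05, 2 were higher and 0 lower, beside 2.41% and 3.53% of all genes. Without wild-type replicate 3, 0 were higher. The 2 were Npr3, a natriuretic peptide receptor of the endocardium, at 0.12 ± 0.050 (SE), and Plvap, a protein of endothelial fenestrae, at 0.087 ± 0.036. Smooth muscle and pericyte markers summed to 3724 to 3937 CPM against 3889 to 4057, with a median of -0.049 over 12. At that threshold 1 was higher and 2 were lower, beside the same 2.41% and 3.53%. Without wild-type replicate 3, 2 were higher and 1 lower. Abcc9, a potassium channel subunit of pericytes, had 0.093 ± 0.034. Myh11, the smooth muscle myosin, had 1.70, 5.67 and 23.4 CPM in wild type and 1.92, 1.86 and 2.10 in S14R/+. Wild-type replicate 3 stood far above the other libraries, and wild-type replicate 1 lay below every S14R/+ library. The log2 fold change was -2.38 ± 0.718 with all libraries and -0.91 ± 0.391 without wild-type replicate 3.

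Epicardial and mesothelial markers had a median of -0.066 over 12, with overlapping sums. At an unadjusted p under 0.05, 2 were lower, beside 3.53% of all genes. Without wild-type replicate 3 the median was 0.041 and 0 were lower. Lymphatic endothelial markers had -0.053 over 5, with 0 genes at the unadjusted threshold. Without wild-type replicate 3 their median was 0.026, with 1 lower. Adipocyte markers had -0.14 over 4, with 0 at the threshold. Adipocyte sums were 11.6 to 13.7 CPM over the 6 libraries. Melanocyte and Schwann cell markers had a median of -0.063 over 11. At the unadjusted threshold 2 were lower, beside the same 3.53%, or 0 without wild-type replicate 3. These were Dct and Pmel, both of pigment synthesis, at -0.53 ± 0.194 and -0.33 ± 0.142 (SE). They stood at 1.53 to 3.22 and 2.03 to 2.98 CPM over the 6 libraries, without overlap between the groups.

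**Figure D5:**
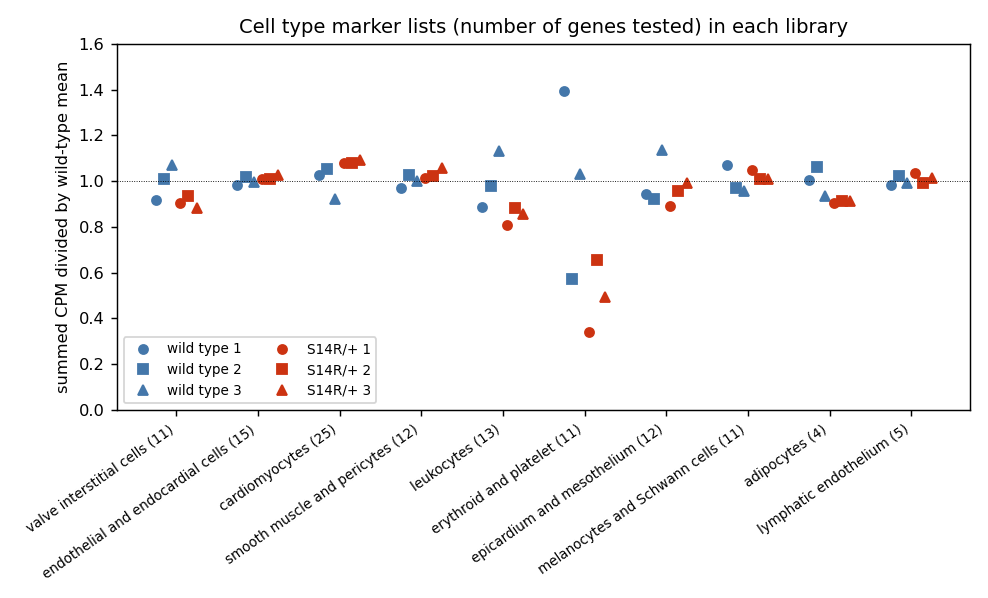
Points give the summed CPM of each cell type marker list in each library, divided by the mean of the 3 wild-type libraries (blue, wild type; red, S14R/+; the axis starts at 0). Erythroid sums spread most, from 988 to 4052 CPM, and cardiomyocyte sums of S14R/+ lie above all wild-type libraries.

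Because an allele is inherited together with its chromosomal neighbourhood, the genes within 5 Mb of Dzip1 on chromosome 14 were read as well, a choice made after the data were seen. RefSeq positions on GRCm38.p6 placed 27 tested genes there. None passed the adjusted threshold in edgeR, and 0 were higher and 2 lower (7.41%) at an unadjusted p under 0.05, beside 3.53% of all genes lower. Of the 27, 20 (74.1%) lay within 0.2 of 0 on the log2 scale, beside 83.9% of all genes. The median was 0.012. The 2 lower genes were Gpc6 and Dct, 0.90 and 0.82 Mb from Dzip1. Dnajc3, the nearest, had a log2 fold change of 0.012 ± 0.051 (SE).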

How the data were processed

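Libraries were made with the SMART-Seq v4 kit from DNase-treated total RNA (RNeasy), per the labels' protocols. The submitters' processing notes name HTSeq, DESeq2, DESeq, cutadapt 1.11 and FastQC 0.11.5, and the build GRCm38. Aligner, annotation and strand setting: not given in the sources used here. Values used here are whole-number counts per gene, not normalized, as deposited by the authors and per the file headers; the fold changes and p-values beside them were not used. In R 4.3.3, edgeR 4.0.16 (TMM scaling, filterByExpr defaults, quasi-likelihood test, adjusted p threshold 0.05) was run on the 6 libraries without covariates. Levels are TMM-scaled CPM. Intervals are 95%. The steps were tested on simulated data. DESeq2 1.42.0, limma-voom (limma 3.58.1) and the settings in the closing section were alternatives; DESeq2 at an adjusted p of 0.1 was added after the data were seen. By rule the text names Dzip1, the 6 genes per direction with the smallest p among genes whose groups do not overlap and whose mean count is at least 50 (none passed the threshold), up to 4 members per list by smallest p, and fixed genes (Sox9, Nfatc1, Postn, Vcan, Col3a1, Col1a1, Ptch1, Gli1, Lef1, Axin2, Ctnnb1, Ift88, Dzip1l, Cby1). Predicted genes are not named. The comparison, lists and named genes were chosen with earlier results of these data known. Replicates are numbered in accession order and are not paired.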

Additional observations from a re-analysis of the deposited data

How the results depend on the processing

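No gene was called under any setting that kept all 6 libraries and an adjusted p threshold of 0.05. DESeq2 at an adjusted p of 0.1, chosen after seeing the data, called 6 genes, 2 higher and 4 lower. Leaving out 1 library gave 0 to 10 genes called, all lower (0 to 10), and 195 to 1189 genes higher and 304 to 1356 lower at an unadjusted p under 0.05. With the cardiomyocyte list as a covariate those numbers were 256 and 232. Some list medians moved away from 0 under it, such as Notch (-0.1109), Hedgehog (-0.0928) and proteoglycans (-0.1008). Others moved towards 0, such as leukocytes (-0.0649) and erythroid and platelet genes (-0.3478). Under that covariate log2 fold changes took the other sign for Dzip1 (0.0813), Cby1 (-0.0865), Ctnnb1 (-0.0523), Col1a1 (0.0538), Vcan (-0.1144), Nfatc1 (0.0895), Kif3a (0.0284), Uqcrc1 (-0.0104), Cox5a (-0.0301), Slc16a3 (-0.0011) and Myh7 (-0.0237). Myh7 is itself in that list, and the level of the list did not overlap between the groups, so the covariate cannot be told apart from genotype. Under the transcript length correction Cby1 was -0.0048. Leaving out 1 library moved Dzip1 between -0.1105 and -0.0181, Cby1 between -0.0496 and 0.071, Ctnnb1 between -0.0098 and 0.0403, Lef1 between -0.0726 and 0.0839, Nfatc1 between -0.0507 and 0.0121, Sox9 between -0.0794 and 0.0699, Vcan between -0.0084 and 0.1463 and Ift88 between -0.0367 and 0.0448. None of these values passed the threshold, and the cause was not tested. Scaling, low-count filters, thinning to equal depth, sex as a covariate and leaving out sex-linked genes reversed none of the 81 genes recomputed under every setting; other genes in the text were not recomputed. Gli1 had 47 to 97 counts per library and Hoxa4 19 to 155, and what limits their precision was not tested.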
